A study of Mus musculus with 24 samples.

Results

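The genes of the intracellular fatty acid binding proteins and of the fatty acid transport proteins were followed in liver RNA of mice that lack lipin 1 in fat cells. The set was chosen by symbol and holds 8 genes (Fabp1, Fabp2, Fabp5, Fabp7, Slc27a1, Slc27a2, Slc27a4 and Slc27a5) of the 41388 genes in the count tables. All 8 passed the filter on low counts, as did 13052 genes in all. Lpin1 encodes a phosphatidate phosphatase that makes diacylglycerol for triglyceride synthesis, and the study asked how its loss from fat cells changes the liver.

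All mice were males on a C57BL/6J background that were homozygous for a floxed Lpin1 allele. Adn-Lpin1-/- mice also carried a Cre recombinase driven by the adiponectin promoter, which is active in fat cells, whereas the WT mice were littermates without Cre. From 8 weeks of age they ate a low-fat diet (LFD, 10% of kcal from fat) or a high-fat diet (HFD, 60% of kcal from fat). The sample labels give 16 weeks of diet and the study's methods give a shorter period, so the length of feeding behind these values is uncertain. Each of the 4 groups (WT LFD, Adn-Lpin1-/- LFD, WT HFD and Adn-Lpin1-/- HFD) held 5 mice, taken after a short fast, with 1 library per mouse and 1 further library labelled as the pool of those 5 mice. Total counts of the 20 single-mouse libraries ran from 36260187 to 81072794, with group medians on LFD of 40777580 (WT) and 52955319 (Adn-Lpin1-/-) and on HFD of 57124312 (WT) and 62306028 (Adn-Lpin1-/-), so depth and group were not independent.

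Fatty acids that enter a hepatocyte are poorly soluble in water and are carried in the cytosol by small proteins with a single lipid-binding cavity, the fatty acid binding proteins (FABPs). The fatty acid transport proteins (FATPs), encoded by the Slc27a genes, are membrane proteins that join very-long-chain or long-chain fatty acids, or bile acids, to coenzyme A and so promote fatty acid uptake or bile acid conjugation. Fabp1 is the liver form and binds fatty acids, acyl-CoAs, haem and bile acids, Fabp2 is the intestinal form, Fabp5 is known from skin, macrophages and endothelium, and Fabp7 from brain. Slc27a2 and Slc27a5 are the main liver members of the FATP family, and the Slc27a5 product is the bile acid-CoA synthetase. Slc27a1 is known from muscle and fat, and Slc27a4 from intestine and skin.

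The labelled tissue matched its markers, since Alb, the hepatocyte's albumin gene, stood at 78714 ± 4665 CPM (SD, n = 5) in WT LFD mice and was the most abundant of 5 hepatocyte markers in every group. CPM here are counts per 1000000 reads of the tested genes after TMM scaling, and all levels and SDs below are over 5 mice per group. Liver Lpin1 was present in every mouse. It stood at 198, 405, 371, 673 and 142 CPM in the WT LFD mice and at 1195, 590, 453, 512 and 322 CPM in the Adn-Lpin1-/- LFD mice. On HFD it stood at 275, 137, 153, 556 and 252.05 CPM in WT and at 140, 120, 580, 533 and 285 CPM in Adn-Lpin1-/- mice. The genotypes overlapped on both diets (adjusted p = 0.314 on LFD and 0.734 on HFD, edgeR quasi-likelihood test with Benjamini-Hochberg adjustment), and because the deletion is in fat cells these liver values do not check the genotype labels.

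Per length, Fabp1 was the most abundant of the 8 genes in every group and Fabp7 or Fabp5 the least. Levels per length are RPKM-like values, the CPM divided by the gene's length in kilobases from the count tables. Fabp1 stood at 10421 ± 1074 RPKM in WT LFD mice and ranked 5 of the 13052 tested genes by its mean over the 20 mice. In that group Slc27a2 (401 ± 47.8 RPKM) and Slc27a5 (374 ± 30.4 RPKM) came next and overlapped each other. They were followed without overlap by Fabp2 (93.4 ± 16.9 RPKM), Fabp5 (29.3 ± 19.3 RPKM), Slc27a4 (8.70 ± 0.68 RPKM), Slc27a1 (4.72 ± 0.61 RPKM) and Fabp7 (0.83 ± 0.47 RPKM). The order differed between the diets at a single gene, because Fabp5, the fifth in both LFD groups, was the seventh in WT HFD mice (3.25 ± 1.77 RPKM, overlapping Slc27a1 above it) and the last in Adn-Lpin1-/- HFD mice (1.07 ± 0.28 RPKM, overlapping Fabp7). The length given for Fabp5, 3567 bases, is far longer than its coding sequence of 408 bases, and its level per length depends on that length.

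**Figure D1:**
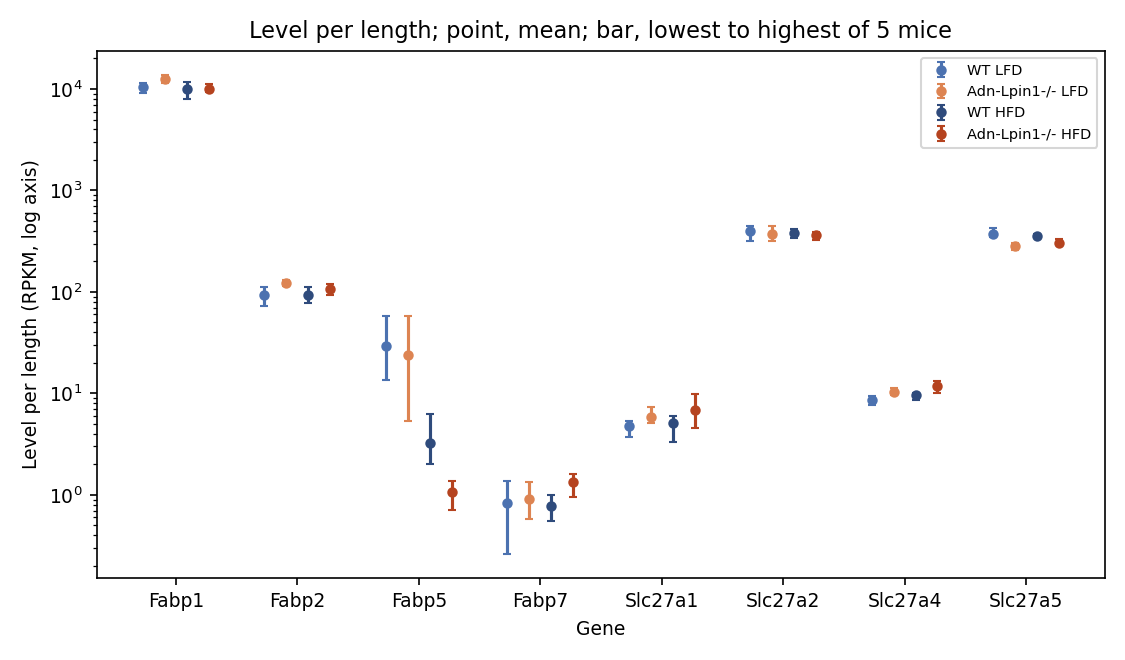
Level per length (RPKM, log axis) of each of the 8 genes in the 4 groups. Points are means and bars run from the lowest to the highest of 5 mice. Fabp1 lies highest in every group, and Fabp5 moves from the fifth place on LFD to the seventh or eighth on HFD.

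Fabp1 alone made up 98.8% ± 0.14 of the summed RPKM of the 4 FABP genes in WT LFD mice and 98.9% ± 0.05 in Adn-Lpin1-/- HFD mice. Slc27a2 and Slc27a5 made up 50.8% ± 3.09 and 47.5% ± 3.03 of the summed RPKM of the 4 FATP genes in WT LFD mice. In Adn-Lpin1-/- LFD mice their shares were 55.7% ± 2.78 and 41.9% ± 2.62, while Slc27a4 took 1.54% ± 0.23 and Slc27a1 0.87% ± 0.06. These shares are linked within a mouse and were not tested.

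The 8 genes also differed in how much they varied between mice of 1 group. The pooled within-group SD of log2 CPM was 0.85 for Fabp5, higher than in 98.9% of the tested genes, and 0.55 for Fabp7. For Slc27a5 it was 0.08, higher than in 5.10% of the tested genes, and the median over all tested genes was 0.19. The lowly expressed Fabp7 exceeded 1 CPM in 12 of 20 mice.

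Of the 8 genes, 2 were called between genotypes on LFD (adjusted p at or below 0.05), 3 between genotypes on HFD, 1 between diets in WT mice and 1 between diets in Adn-Lpin1-/- mice. Over all tested genes the corresponding shares were 14.4%, 18.6%, 1.1% and 2.46%. In the genotype comparison 6.27% of all tested genes were higher and 8.11% lower in Adn-Lpin1-/- mice on LFD, and 9.87% were higher and 8.78% lower on HFD. On LFD 1 member was called higher and 1 lower, and on HFD 1 higher and 2 lower. All 5 mice of a group lay above or below all 5 of the other for 4, 3, 1 and 2 of the 8 genes in the 4 comparisons, against 10.1%, 11.4%, 3.73% and 4.06% of all tested genes. The median log2 fold change of the 8 genes was 0.19 for the genotype on LFD and 0.10 on HFD, and -0.07 and 0.02 for the diet in WT and Adn-Lpin1-/- mice, beside medians of 0.01 or less over all tested genes.

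**Figure D2:**
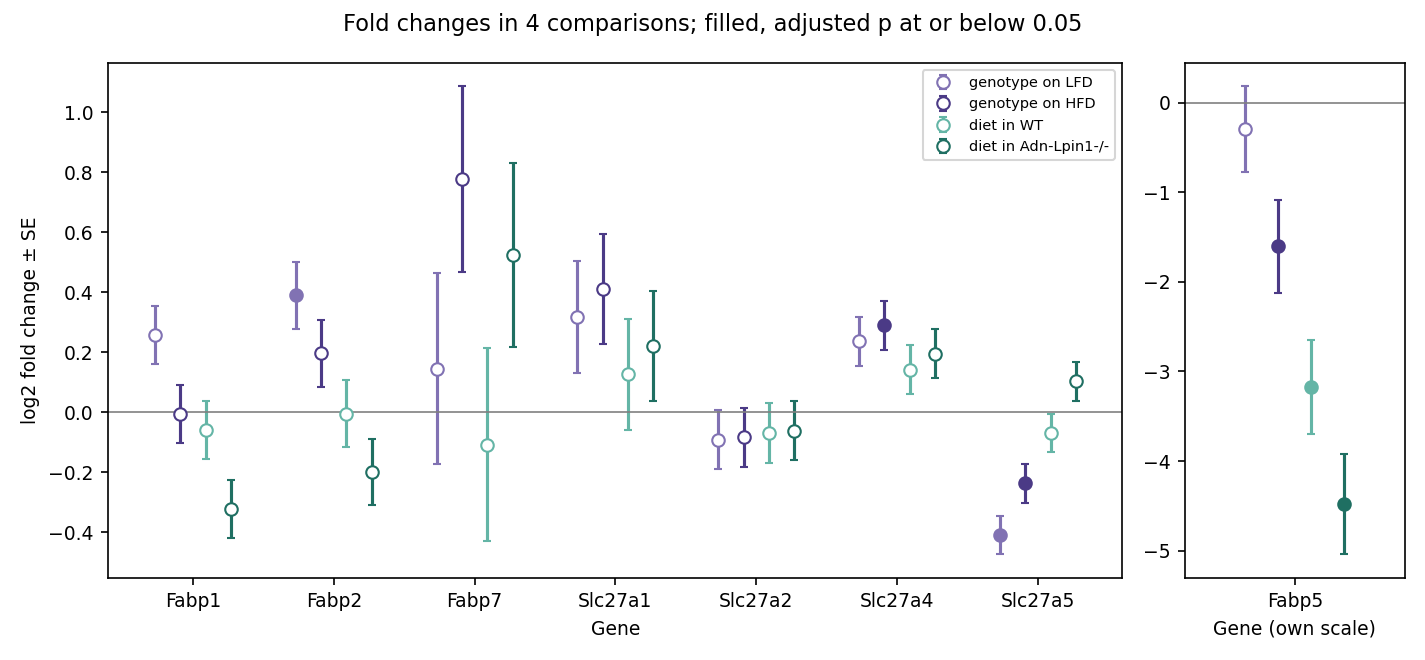
Log2 fold changes with their SEs (vertical axes) of the 8 genes in 4 comparisons of 5 against 5 mice, Adn-Lpin1-/- over WT for the genotype and HFD over LFD for the diet. Filled points passed an adjusted p of 0.05. Fabp5, on its own scale, reaches -4.48, whereas no other gene passes 1 in either direction.

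Fabp5 was far lower on the high-fat diet in both genotypes. In the WT LFD mice Fabp5 stood at 54.6, 208, 48.7, 142 and 69.8 CPM, and in the WT HFD mice at 7.20, 8.35, 8.32, 11.6 and 22.5 CPM. All 5 WT HFD mice lay below the lowest WT LFD mouse. Fabp5 was 9.03-fold lower on HFD (log2 fold change -3.17, SE 0.52, adjusted p = 0.00959), and the exact permutation test (two-sided, 5 against 5 mice) gave p = 0.00794, the smallest that this design allows.

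Among Adn-Lpin1-/- mice Fabp5 stood at 59.5, 71.9, 207, 68.5 and 19.2 CPM on LFD and at 3.65, 4.91, 3.28, 2.503 and 4.68 CPM on HFD. The groups did not overlap here either, and the HFD mice were the more uniform. Fabp5 was 22.3-fold lower on HFD (log2 fold change -4.48, SE 0.56, adjusted p = 0.000173; exact permutation p = 0.00794). Without Adn-Lpin1-/- LFD mouse 3, the highest of its group, the log2 fold change was -3.84 and was still called. By fold change Fabp5 ranked 4 of the 88 genes that fell with HFD in WT mice and 2 of the 165 that fell in Adn-Lpin1-/- mice, in comparisons that call 1.26% of all tested genes lower and 1.2% higher in the latter. Under the 9 alternative settings its diet change stayed between -3.25 and -3.10 in WT and between -4.49 and -4.34 in Adn-Lpin1-/- mice, all called.

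The genotypes were compared within each diet. On LFD Fabp5 averaged 105 ± 68.8 CPM in WT and 85.1 ± 71.1 CPM in Adn-Lpin1-/- mice, and these groups overlapped (log2 fold change -0.30, SE 0.48, adjusted p = 0.723). That value rested on single mice, as it was -0.94 without Adn-Lpin1-/- LFD mouse 3 and 0.11 without WT LFD mouse 2, and it was called in neither fit. On HFD it averaged 11.6 ± 6.31 CPM in WT and 3.80 ± 1.00 CPM in Adn-Lpin1-/- mice, and all 5 Adn-Lpin1-/- mice lay below all 5 WT mice. That difference was 3.04-fold (log2 fold change -1.60, SE 0.52, adjusted p = 0.0362; exact permutation p = 0.00794). The call was lost with voom and quality weights (log2 fold change -1.34, adjusted p = 0.274), with the pooled libraries added to that fit (-1.43, adjusted p = 0.0694), and with the mouse number as a replicate block (-1.61, adjusted p = 0.0562). It was also lost when WT HFD mouse 5, the highest of its group, was left out (-1.23, adjusted p = 0.116), and likewise without WT HFD mouse 4 or Adn-Lpin1-/- HFD mouse 1, 2, 3 or 4 (log2 fold change -1.71 to -1.50, adjusted p = 0.0520 to 0.0703). The diet change of Fabp5 was 1.31 log2 units larger in Adn-Lpin1-/- mice (SE 0.70), a difference that was not called (unadjusted p = 0.0763, adjusted p = 0.739).

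**Figure D3:**
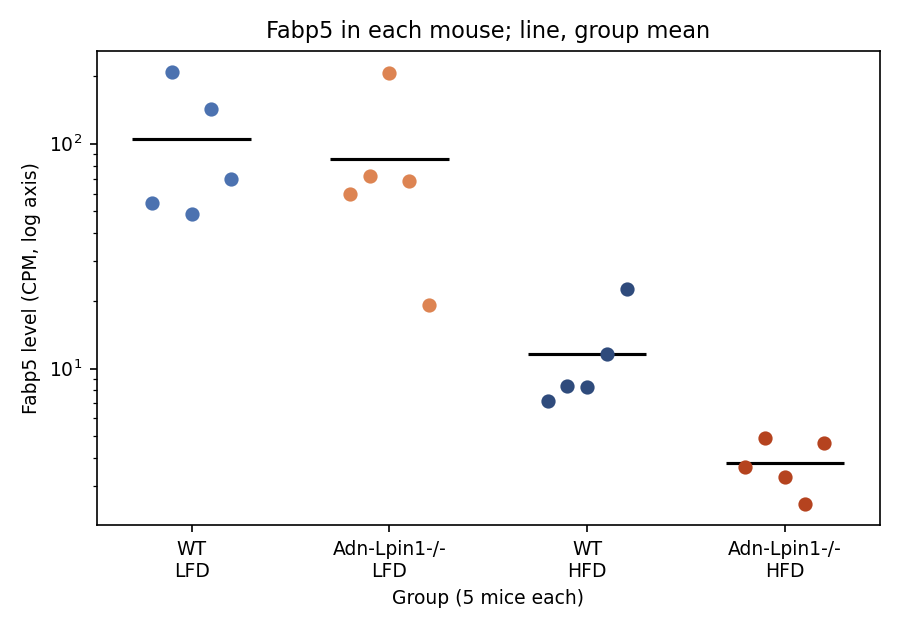
Fabp5 level (CPM, log axis) in each of 5 mice per group, with a line at the group mean. The LFD mice lie between 19.2 and 208 CPM, the WT HFD mice between 7.20 and 22.5 CPM and the Adn-Lpin1-/- HFD mice between 2.503 and 4.91 CPM.

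The lowest library held 145 Fabp5 reads and the highest 12962. In plain CPM the pooled libraries stood at 91.9 and 82.2 on LFD and at 9.92 and 3.79 on HFD in WT and Adn-Lpin1-/- mice, all within the range of their own mice. Over the 8 genes and 4 groups, 30 of 32 pooled values lay within the range of the mice. The exceptions were Slc27a4 in WT LFD (30.1 CPM in the pool, 31.9 CPM in the lowest mouse) and Fabp2 in Adn-Lpin1-/- HFD mice (122.0 CPM in the pool, 121.8 CPM in the highest mouse).

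Fabp5 has processed copies in the mouse genome. These could matter for its count, because a read that fits several places equally well was not counted by the submitters. Of the genes in the tables, 5 were at least 90% identical to a Fabp5 transcript over at least 200 bases. Gm6166 was 98.3% identical over 409 bases and Gm14328 97.3% over 408 bases, and Fabp5l2, Gm13998 and Gm6100 were 93.6% to 94.1% identical. Gm6166 is annotated as a processed pseudogene on the plus strand at chr9:57483913-57484585 (GRCm38), and Fabp5 lies on the plus strand at chr3:10012548-10016607. The first 180 bases of the Fabp5 coding sequence and of its counterpart in Gm6166, from the GENCODE transcripts, are shown as an example of how alike a copy can be. Within them the sequences differ at 1 base, T9C (Fabp5 base, position from 1 at the first base of the start codon, Gm6166 base), which is in capitals, and the other differences behind the 98.3% identity lie outside this stretch.
Fabp5: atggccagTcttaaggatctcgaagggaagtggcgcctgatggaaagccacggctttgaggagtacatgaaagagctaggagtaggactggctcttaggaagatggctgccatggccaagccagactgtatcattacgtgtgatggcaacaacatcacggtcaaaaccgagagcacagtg
Gm6166: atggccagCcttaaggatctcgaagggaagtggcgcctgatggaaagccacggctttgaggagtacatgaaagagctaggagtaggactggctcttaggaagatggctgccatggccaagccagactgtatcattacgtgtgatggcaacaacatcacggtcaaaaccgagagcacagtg

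Together the 5 copies received 3726 reads over the 20 mice, 7.38% of the 50467 reads of Fabp5. On LFD they averaged 6.67% (WT) and 7.89% (Adn-Lpin1-/-) of the Fabp5 level and on HFD 7.30% and 9.62%, and in single mice between 5.01% and 13.2%. Their summed level was 6.98 ± 4.48 and 6.75 ± 5.30 CPM on LFD and 0.87 ± 0.55 and 0.36 ± 0.12 CPM on HFD in WT and Adn-Lpin1-/- mice. Whether reads of Fabp5 were assigned to the copies was not tested. With the reads of all 5 copies added to Fabp5, an alternative chosen after the data had been seen, the diet change was -3.16 in WT and -4.46 in Adn-Lpin1-/- mice and the genotype difference on HFD -1.58 (adjusted p = 0.0381).

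The genes whose log2 CPM followed Fabp5 most closely over the 20 mice were 2 of these copies, Gm14328 (Pearson r = 0.98) and Gm6166 (r = 0.96), followed by Gm2a (r = 0.94). With the group means removed r was 0.94, 0.83 and 0.78. Gm2a encodes the GM2 activator, a lysosomal lipid-transfer protein, and fell with HFD by 0.38 log2 units in WT (adjusted p = 0.0354) and by 0.42 in Adn-Lpin1-/- mice (adjusted p = 0.0139). The points share libraries and the groups' means, and r is given as a description only.

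Fabp5 sits in a cluster of FABP genes on chromosome 3 with Pmp2, Fabp9, Fabp4 and Fabp12, between base 10012548 and base 10301183. Of these neighbours Pmp2 had no read in any mouse, Fabp9 averaged 0.01 CPM or less and Fabp12 0.11 CPM or less in every group, and only Fabp4, at chr3:10204347-10208576, passed the filter. Fabp4, the adipocyte and macrophage form, stood at 4.69 ± 1.35 and 5.71 ± 1.94 CPM in WT mice on LFD and HFD. In Adn-Lpin1-/- mice it stood at 9.86 ± 2.89 and 10.6 ± 1.96 CPM. Fabp4 rose in Adn-Lpin1-/- mice on both diets (log2 fold change 1.07, SE 0.25, adjusted p = 0.00718 on LFD; 0.89, SE 0.24, adjusted p = 0.0162 on HFD), and its diet changes of 0.28 and 0.10 were not called, whereas its neighbour Fabp5 differed between the diets.

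In bulk liver RNA, fewer cells of a type and less RNA per cell cannot be told apart. Markers of some cell types other than hepatocytes that could carry Fabp5 and Fabp4 were therefore read beside them. Hepatocyte markers are given below with Slc27a5, and whether hepatocytes carried Fabp5 was not tested. The summed level of 7 macrophage and Kupffer cell markers was 165 ± 41.3, 193 ± 55.3, 158 ± 15.5 and 269 ± 97.2 CPM in WT LFD, Adn-Lpin1-/- LFD, WT HFD and Adn-Lpin1-/- HFD mice, with Clec4f the most abundant. Of these markers 5 of 7 rose in Adn-Lpin1-/- mice on HFD (Clec4f, Cd68, Csf1r, Vsig4 and Cd5l) beside 9.87% of all tested genes. None was called between diets, beside 1.1% (WT) and 2.46% (Adn-Lpin1-/-) of all tested genes. Their median log2 fold changes between diets were -0.03 in WT and 0.55 in Adn-Lpin1-/- mice. The 6 endothelial markers summed to 99.5 ± 19.98, 132 ± 35.2, 103 ± 16.5 and 151 ± 10.7 CPM in the same order, led by Stab2. Of these, 3 of 6 rose in Adn-Lpin1-/- mice on LFD and 4 of 6 on HFD, beside 6.27% and 9.87% of all tested genes. None of the 6 was called between diets, beside the same shares of 1.1% and 2.46%, and their medians there were 0.05 and 0.20.

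Markers of adipocytes, keratinocytes and skeletal muscle were also read. Of 5 adipocyte markers Adipoq averaged 0.91 ± 1.91, 0.07 ± 0.06, 0.19 ± 0.31 and 0.03 ± 0.01 CPM, where 1 mouse at 4.32 CPM carried the WT LFD mean, and Plin1 averaged 0.0225 CPM or less in every group. Cfd, the adipocyte gene for adipsin, was the most abundant of the 5 and averaged 0.83, 11.3, 5.83 and 81.8 CPM in the 4 groups, and it was the single adipocyte marker that passed the filter. Cfd was called higher in Adn-Lpin1-/- mice on both diets (log2 fold change 3.76, SE 1.18, adjusted p = 0.0376 on LFD; 3.81, SE 1.02, adjusted p = 0.0150 on HFD), as Fabp4 was, and single Adn-Lpin1-/- HFD mice ranged from 3.90 to 183 CPM. The 3 keratinocyte markers summed to 0.01, 0.02, 0.44 and 0.33 CPM, led by Dsg3, and Krt14 averaged under 0.01 CPM in every group. Each HFD sum rested on Dsg3 in 1 mouse. In WT HFD this was mouse 5 at 1.99 CPM (the others of its group at 0.10 CPM or less), also the highest for Fabp5. In Adn-Lpin1-/- HFD it was mouse 1 at 1.60 CPM (the others at 0.0345 CPM or less). For Fabp5 the latter mouse stood at 3.65 CPM, inside its group's range of 2.503 to 4.91 CPM. The 3 skeletal muscle markers summed to 0.63 to 0.76 CPM, led by Mylpf. The part of these cell types in the values of Fabp5 and Fabp4 was not tested.

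Slc27a5, the bile acid-CoA synthetase that activates bile acids before they are joined to taurine or glycine, was lower in Adn-Lpin1-/- mice on both diets. In the WT LFD mice Slc27a5 stood at 906, 856, 1037, 854 and 914 CPM, and in the Adn-Lpin1-/- LFD mice at 735, 686, 636, 704 and 677 CPM. It was 1.33-fold lower there (log2 fold change -0.41, SE 0.06, adjusted p = 0.000352). On HFD it stood at 845, 909, 867, 849 and 882 CPM in WT and at 722, 708, 717, 821 and 723 CPM in Adn-Lpin1-/- mice, or 1.18-fold lower (log2 fold change -0.24, SE 0.06, adjusted p = 0.0155). The genotypes did not overlap on either diet (exact permutation p = 0.00794 for each), although Adn-Lpin1-/- HFD mouse 4 lay near the WT mice. Slc27a5 kept its call under all 9 alternative settings and in all 20 fits that left out 1 mouse. Of these settings, 1 (the copies added to Fabp5) leaves the Slc27a5 counts unchanged and so does not test them. The difference was 0.17 log2 units smaller on HFD (SE 0.09, unadjusted p = 0.0721, adjusted p = 0.736), and neither diet change was called (-0.07 in WT and 0.10 in Adn-Lpin1-/- mice).

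The 5 hepatocyte markers, read beside Slc27a5, summed to 103178 ± 3408 and 88745 ± 9460 CPM in WT and Adn-Lpin1-/- mice on LFD and to 105660 ± 10444 and 81838 ± 10030 CPM on HFD, with Alb the most abundant. Of the 5, Serpina1a was called lower on LFD, and Alb, Apoa1 and Serpina1a on HFD, beside 8.11% and 8.78% of all tested genes. Adn-Lpin1-/- HFD mouse 4, the highest of its group for Slc27a5, stood at 99630 CPM in this sum, beside 76145 to 79575 CPM in the other 4 mice. Their log2 fold changes between genotypes on LFD and HFD were -0.22 and -0.34 for Alb, -0.29 and -0.77 for Apoa1 and -0.49 and -0.42 for Serpina1a. Trf (-0.16 and -0.34) and Ttr (0.04 and -0.01) were called on neither diet. Their part in the Slc27a5 values was not tested. The liver's other main FATP gene, Slc27a2, was not called in any comparison.

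Among 6 genes known to act with Slc27a5 in bile acid synthesis, conjugation and uptake, 3 fell in Adn-Lpin1-/- mice on LFD and 2 on HFD, and none rose with the genotype. Over all tested genes 8.11% were called lower on LFD and 8.78% on HFD. Baat, which transfers the activated bile acid to its amino acid, fell by 0.33 log2 units on LFD (SE 0.07, adjusted p = 0.00649) and was not called on HFD (169 ± 11.2 CPM in WT and 169 ± 16.0 CPM in Adn-Lpin1-/- mice, adjusted p = 0.997). Between the diets it rose by 0.36 in Adn-Lpin1-/- mice (SE 0.07, adjusted p = 0.0151). Amacr, a racemase of bile acid side-chain oxidation, fell by 0.33 on LFD (adjusted p = 0.00233) and by 0.22 on HFD (adjusted p = 0.0269). Slco1b2, an organic anion uptake carrier, fell by 0.38 on LFD (SE 0.11, adjusted p = 0.0284), and Slc10a1, the sodium-dependent bile acid carrier, fell by 0.31 on HFD (SE 0.09, adjusted p = 0.0258). Acox2 and Hsd17b4, peroxisomal enzymes of the same chain, were not called.

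The genes most like Slc27a5 over the 20 mice were Gm4788 (r = 0.92), Zfp871 (r = 0.92) and F830016B08Rik (r = 0.92). With the group means removed these values fell to 0.56, 0.44 and 0.39, so that most of the likeness lay between groups. Zfp871, a zinc-finger gene, averaged 24.6 and 23.2 CPM in WT mice on LFD and HFD and 2.64 and 4.59 CPM in Adn-Lpin1-/- mice. F830016B08Rik averaged 52.7 and 36.2 CPM against 5.66 and 8.08 CPM. On LFD their log2 fold changes between genotypes were -3.23 and -3.22, beside -0.41 for Slc27a5.

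Slc27a4, a long-chain acyl-CoA synthetase of the FATP family, was higher in Adn-Lpin1-/- mice. On HFD Slc27a4 stood at 42.1, 44.0, 43.5, 44.3 and 38.0 CPM in WT and at 57.0, 52.8, 58.9, 46.1 and 44.3 CPM in Adn-Lpin1-/- mice, and the lowest Adn-Lpin1-/- mouse lay just above the highest WT mouse. It was 1.22-fold higher (log2 fold change 0.29, SE 0.08, adjusted p = 0.0185; exact permutation p = 0.00794). The call was lost once a trend with GC content was removed (log2 fold change 0.18, adjusted p = 0.141), and without WT HFD mouse 5 or Adn-Lpin1-/- HFD mouse 1 or 3 (log2 fold change 0.24 to 0.25, adjusted p = 0.0511 to 0.0614). On LFD it stood at 38.9, 40.2, 37.3, 33.9 and 41.7 CPM in WT and at 42.4, 47.6, 42.2, 43.8 and 50.5 CPM in Adn-Lpin1-/- mice, again without overlap (exact permutation p = 0.00794). That difference was not called in edgeR (log2 fold change 0.24, SE 0.08, adjusted p = 0.0561), and it was called by DESeq2 (adjusted p = 0.0451) and by voom with quality weights (adjusted p = 0.0296). With the GC trend removed the LFD difference was 0.16 and was not called (adjusted p = 0.220). The genotype differences on HFD and LFD differed by 0.05 log2 units (SE 0.12, adjusted p = 0.961).

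Most like Slc27a4 over the 20 mice were Smarca4, a chromatin remodeller (r = 0.93, and 0.83 with the group means removed), Icmt (r = 0.93 and 0.86) and Gpd1, which makes glycerol-3-phosphate (r = 0.93 and 0.89). Gpd1 averaged 325 and 427 CPM in WT and Adn-Lpin1-/- mice on LFD and 357 and 488 CPM on HFD, and rose by 0.45 log2 units in Adn-Lpin1-/- mice on HFD (adjusted p = 0.0409). Slc27a1, the muscle and fat form, was not called in any comparison in edgeR. In WT mice it ranged from 10.4 to 14.8 CPM on LFD and from 9.33 to 16.7 CPM on HFD, and in Adn-Lpin1-/- mice from 14.3 to 20.5 CPM and from 12.8 to 27.7 CPM. Its genotype difference was 0.32 on LFD (SE 0.19, adjusted p = 0.273) and 0.41 on HFD (SE 0.18, adjusted p = 0.124), and without Adn-Lpin1-/- HFD mouse 4 the latter was 0.51 and was called (adjusted p = 0.0454). The HFD difference was also called with the pooled libraries in the voom fit (0.34, adjusted p = 0.0301). The genes most like Slc27a1 were Oplah (r = 0.90), Lipe, the hormone-sensitive lipase (r = 0.85), and Stat5a (r = 0.84).

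Slc27a2, the very-long-chain acyl-CoA synthetase, varied little between groups. Its group means were 1504 ± 179, 1412 ± 199, 1433 ± 129 and 1353 ± 82.7 CPM in WT LFD, Adn-Lpin1-/- LFD, WT HFD and Adn-Lpin1-/- HFD mice. All 4 log2 fold changes lay between -0.09 and -0.06 with SEs of 0.10, and adjusted p ran from 0.578 to 0.809. Most like it were 4933417D19Rik (r = 0.81), Gm4737 (r = 0.77) and Serpina3j (r = 0.76). Its annotated near copy Gm26697 held 0.0357% as many reads.

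Fabp2, the intestinal FABP, was higher in Adn-Lpin1-/- mice on LFD. Fabp2 stood at 104, 70.3, 78.6, 89.0 and 109 CPM in WT LFD mice and at 111, 121, 110, 121 and 127 CPM in Adn-Lpin1-/- LFD mice. The Adn-Lpin1-/- mice all lay above the WT mice, though the nearest values were 108.6 and 110.3 CPM. It was 1.31-fold higher (log2 fold change 0.39, SE 0.11, adjusted p = 0.0244; exact permutation p = 0.00794). The call held under all 9 alternative settings, of which 1 (the copies added to Fabp5) leaves the Fabp2 counts unchanged. It was lost without WT LFD mouse 2 or 3 or Adn-Lpin1-/- LFD mouse 2 or 5 (log2 fold change 0.31 to 0.38, adjusted p = 0.0515 to 0.0738). On HFD Fabp2 averaged 89.8 ± 13.01 CPM in WT and 103 ± 9.81 CPM in Adn-Lpin1-/- mice and was not called (log2 fold change 0.20, SE 0.11, adjusted p = 0.228).

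The enterocyte genes Vil1 and Alpi were near 0, Vil1 at 0.33 CPM or less and Alpi at 0.01 CPM or less in the group means. Together with 3 pancreas genes these markers summed to 26.9 ± 7.29, 14.3 ± 5.18, 33.6 ± 5.24 and 19.8 ± 10.3 CPM, nearly all of it Cela1, which was called lower in Adn-Lpin1-/- mice on LFD, where Fabp2 was higher. Genes most like Fabp2 were Fkbp7 (r = 0.88), Gusb, the lysosomal glucuronidase (r = 0.85), and Cyp3a16 (r = 0.84). Gusb rose with the genotype on LFD by 0.46 log2 units (adjusted p = 0.00634) and Fkbp7 by 0.73 (adjusted p = 0.0293).

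Fabp1, by far the most abundant member, was highest in Adn-Lpin1-/- LFD mice without passing the threshold. In the WT LFD mice Fabp1 stood at 6294, 5211, 5049, 5978 and 6282 CPM, and in the Adn-Lpin1-/- LFD mice at 6505, 6812, 7656, 7128 and 6318 CPM. On HFD it stood at 5702, 4408, 5570, 6499 and 5446 CPM in WT and at 5423, 5372, 6243, 5337 and 5142 CPM in Adn-Lpin1-/- mice. All 5 Adn-Lpin1-/- LFD mice lay above the WT LFD and the Adn-Lpin1-/- HFD mice (exact permutation p = 0.00794 for each comparison). The fitted difference was 0.26 between genotypes on LFD (SE 0.10, adjusted p = 0.0811) and -0.32 between diets in Adn-Lpin1-/- mice (SE 0.10, adjusted p = 0.0850). DESeq2 called both (adjusted p = 0.0417 and 0.0212), and voom with quality weights called the first (adjusted p = 0.0345). On HFD the genotype difference was -0.01 (SE 0.10), and the interaction of -0.26 (SE 0.14, unadjusted p = 0.0698) had an adjusted p of 0.736. The genes most like Fabp1 were Lztr1 (r = 0.88), Rnpepl1 (r = 0.83) and Rnd2 (r = 0.83).

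**Figure D4:**
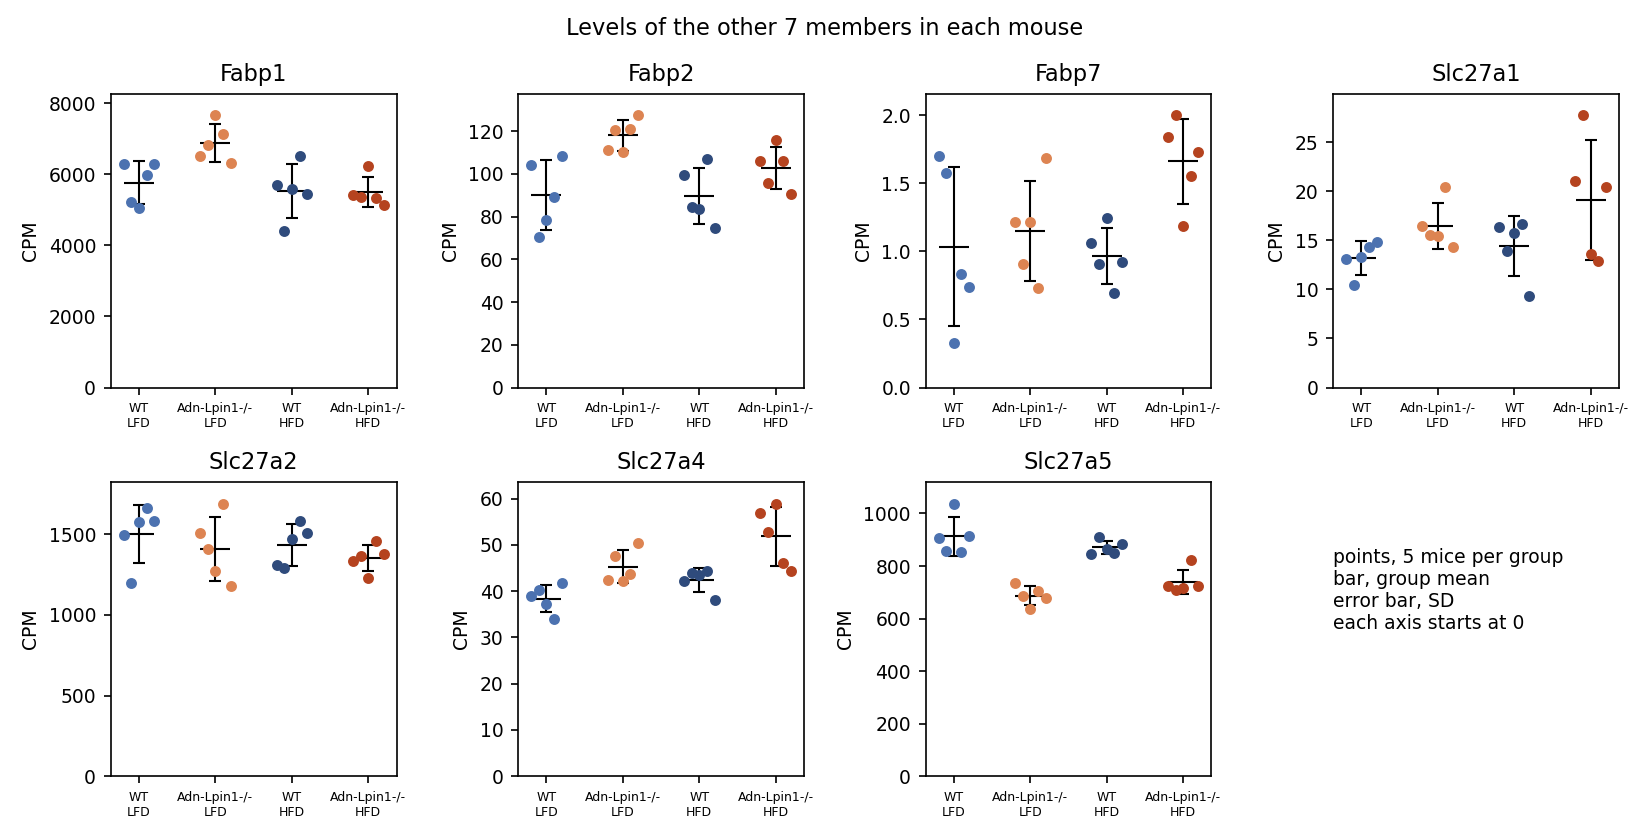
Levels (CPM, each vertical axis from 0) of the other 7 genes in each mouse, with group means and SDs. Slc27a5 is lower and Slc27a4 higher in Adn-Lpin1-/- mice on both diets without overlap, and Fabp1 and Fabp2 lie highest in Adn-Lpin1-/- LFD mice.

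The Fabp1 promoter is known to be driven by PPAR alpha, a nuclear receptor for fatty acids that binds, as a pair with RXR, a direct repeat spaced by 1 base (DR1). Promoters were read from the RefSeq table for GRCm38.p6 for the 6 of 8 members that matched an entry (Fabp1, Fabp2, Fabp7, Slc27a1, Slc27a2 and Slc27a4), in windows of 300 bases from 250 before the start. On either strand these were searched for DR1 (AGGNCANAGGNCA), the E-box CACGTG, the D-box TTANGTAA and the TATA box TATAAA. Fabp1 was the only member with a DR1, which 0.38% of all 32851 promoters hold (125 promoters), and it had a TATA box, as do 13.6% of them. The E-box was in 7.15% and the D-box in 2.32% of all promoters, and both occurred at 1 of the 3 starts listed for Slc27a1. A match is only of letters. The 250 bases before the Fabp1 start, plus strand, chr6:71199629-71199878, are shown for this DR1, which is in capitals and starts 67 bases before the start site.
Fabp1: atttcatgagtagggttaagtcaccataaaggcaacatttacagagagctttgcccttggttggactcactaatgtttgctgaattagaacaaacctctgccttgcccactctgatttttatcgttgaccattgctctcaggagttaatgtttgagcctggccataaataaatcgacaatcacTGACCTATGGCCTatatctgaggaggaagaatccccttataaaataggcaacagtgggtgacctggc

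Levels of the receptors themselves were given beside the 8 genes. Ppara averaged 132 ± 36.7, 129 ± 24.8, 154 ± 28.9 and 152 ± 44.1 CPM in WT LFD, Adn-Lpin1-/- LFD, WT HFD and Adn-Lpin1-/- HFD mice and was not called, and it is named here for that role, after its values had been seen. Of 10 nuclear receptors and factors known to act on FABP and FATP genes, 2 were called between genotypes on LFD and 1 on HFD, beside 14.4% and 18.6% of all tested genes. Pparg, the receptor that drives fat storage genes, rose in Adn-Lpin1-/- mice on LFD from 5.47 ± 3.38 to 14.4 ± 7.26 CPM (log2 fold change 1.3999, SE 0.41, adjusted p = 0.0286). Cebpa, a hepatocyte and adipocyte factor, fell by 0.31 on both diets (SE 0.08, adjusted p = 0.0110 on LFD and 0.00959 on HFD).

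Fabp7 was measured near the filter and had the fewest reads of the 8 genes, 1386 over the 20 mice. Its group means were 1.03 ± 0.58, 1.15 ± 0.36, 0.97 ± 0.20 and 1.66 ± 0.31 CPM in WT LFD, Adn-Lpin1-/- LFD, WT HFD and Adn-Lpin1-/- HFD mice. On HFD the Adn-Lpin1-/- mice ranged from 1.18 to 1.998 CPM and the WT mice from 0.69 to 1.24 CPM, overlapping at the edge. That difference was not called (log2 fold change 0.78, SE 0.31, adjusted p = 0.0846; exact permutation p = 0.0159), and it was called without WT LFD mouse 3 (adjusted p = 0.0429) and with the pooled libraries in the voom fit (adjusted p = 0.0298). The genes most like it were Alox5ap (r = 0.88) and Cd22 (r = 0.85), both known from leukocytes, and 6430548M08Rik (r = 0.85). Alox5ap averaged 1.43 and 2.54 CPM in WT and Adn-Lpin1-/- mice on HFD and rose by 0.83 log2 units (adjusted p = 0.0458). There Cd22 rose by 1.00 (adjusted p = 0.0329) and 6430548M08Rik by 0.75 (adjusted p = 0.0493). Of the 7 macrophage markers 5 rose in that comparison, beside 9.87% of all tested genes, and Adgre1 and Marco were not called. The part of any cell type in the Fabp7 values was not tested.

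No gene at all was called for a genotype by diet interaction (0.0% of those tested, edgeR), and 938 had an unadjusted p under 0.05. None of the 8 genes had, and none was called for it by DESeq2 or voom. DESeq2 called 30 genes of the whole table, voom with quality weights 0, and the voom fit with pools 190.

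The wider fatty acid uptake and activation pathway was read from 6 lists that hold 55 further genes, of which 41 were tested. Of these 41 genes, 10 were called between genotypes on LFD (4 higher and 6 lower), 6 on HFD (2 higher and 4 lower) and 6 between diets in Adn-Lpin1-/- mice (2 higher and 4 lower), beside 14.4%, 18.6% and 2.46% of all tested genes. Between diets in WT mice none was called by edgeR, beside 1.1% of all tested genes. There 11 had an unadjusted p under 0.05, beside 2059 of all 13052 tested genes. DESeq2 called 3 and voom with quality weights 4, beside 400 and 670 of all tested genes. In all 16 genes were called at least once. The lists were made with earlier results of these data known.

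Of 12 cell-surface uptake and lipase genes, 2 were called between genotypes on LFD (1 higher and 1 lower) and 1 on HFD (higher), beside 14.4% and 18.6% of all tested genes. Cavin1, a coat protein of caveolae, rose on LFD (log2 fold change 0.70, SE 0.23, adjusted p = 0.0445), and Gpihbp1, the endothelial anchor of lipoprotein lipase, rose on HFD (0.59, SE 0.20, adjusted p = 0.0429). Both occur in endothelium. Of its 6 markers, 3 were called higher in Adn-Lpin1-/- mice on LFD and 4 on HFD, beside 6.27% and 9.87% of all tested genes. The part of that cell type was not tested. Lipc, hepatic lipase, fell on LFD by 0.40 (SE 0.11, adjusted p = 0.0189), and Lrp1, a remnant receptor, rose with HFD in Adn-Lpin1-/- mice by 0.30 (SE 0.08, adjusted p = 0.0465). Cd36, the best known fatty acid uptake receptor and named here outside the rule after its values had been seen, averaged 23.3 ± 31.7 and 79.5 ± 56.3 CPM in WT and Adn-Lpin1-/- mice on LFD. On HFD it averaged 32.7 ± 13.7 and 105.7 ± 50.5 CPM, and neither difference was called (log2 fold change 1.77, adjusted p = 0.0627 on LFD; 1.69, adjusted p = 0.0604 on HFD). In the WT LFD group 1 mouse stood at 79.9 CPM, the highest, and the lowest at 7.56 CPM.

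Long-chain acyl-CoA synthetases, which activate fatty acids after uptake, were lower on HFD in Adn-Lpin1-/- mice in 2 of 4 tested genes, beside 1.26% of all tested genes. Acsl4, which prefers arachidonic acid, stood at 46.6 ± 3.94, 46.0 ± 5.07 and 46.5 ± 7.66 CPM in WT LFD, Adn-Lpin1-/- LFD and WT HFD mice and at 28.7 ± 5.70 CPM in Adn-Lpin1-/- HFD mice. It fell between diets in Adn-Lpin1-/- mice by 0.68 log2 units (SE 0.13, adjusted p = 0.00751) and between genotypes on HFD by 0.70 (SE 0.13, adjusted p = 0.00156). Acsl5 fell between diets in Adn-Lpin1-/- mice by 0.68 (SE 0.14, adjusted p = 0.0110), from 411 ± 24.3 to 256 ± 53.3 CPM. Acsl1, the major liver form, and Acsl3 were not called.

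Dbi, the acyl-CoA binding protein that carries activated fatty acids in the cytosol, was highest in the same group as Fabp1. Dbi averaged 669 ± 53.4, 783 ± 47.4, 689 ± 46.5 and 601 ± 52.4 CPM in WT LFD, Adn-Lpin1-/- LFD, WT HFD and Adn-Lpin1-/- HFD mice. It rose between genotypes on LFD by 0.23 (SE 0.07, adjusted p = 0.0448) and fell between diets in Adn-Lpin1-/- mice by 0.38 (SE 0.07, adjusted p = 0.00842). Of the other tested acyl-CoA, sterol and retinoid binding genes, Acbd5 fell between genotypes on LFD by 0.29 (SE 0.07, adjusted p = 0.00828) and Acbd6 fell between diets in Adn-Lpin1-/- mice by 0.31 (SE 0.07, adjusted p = 0.0315).

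**Figure D5:**
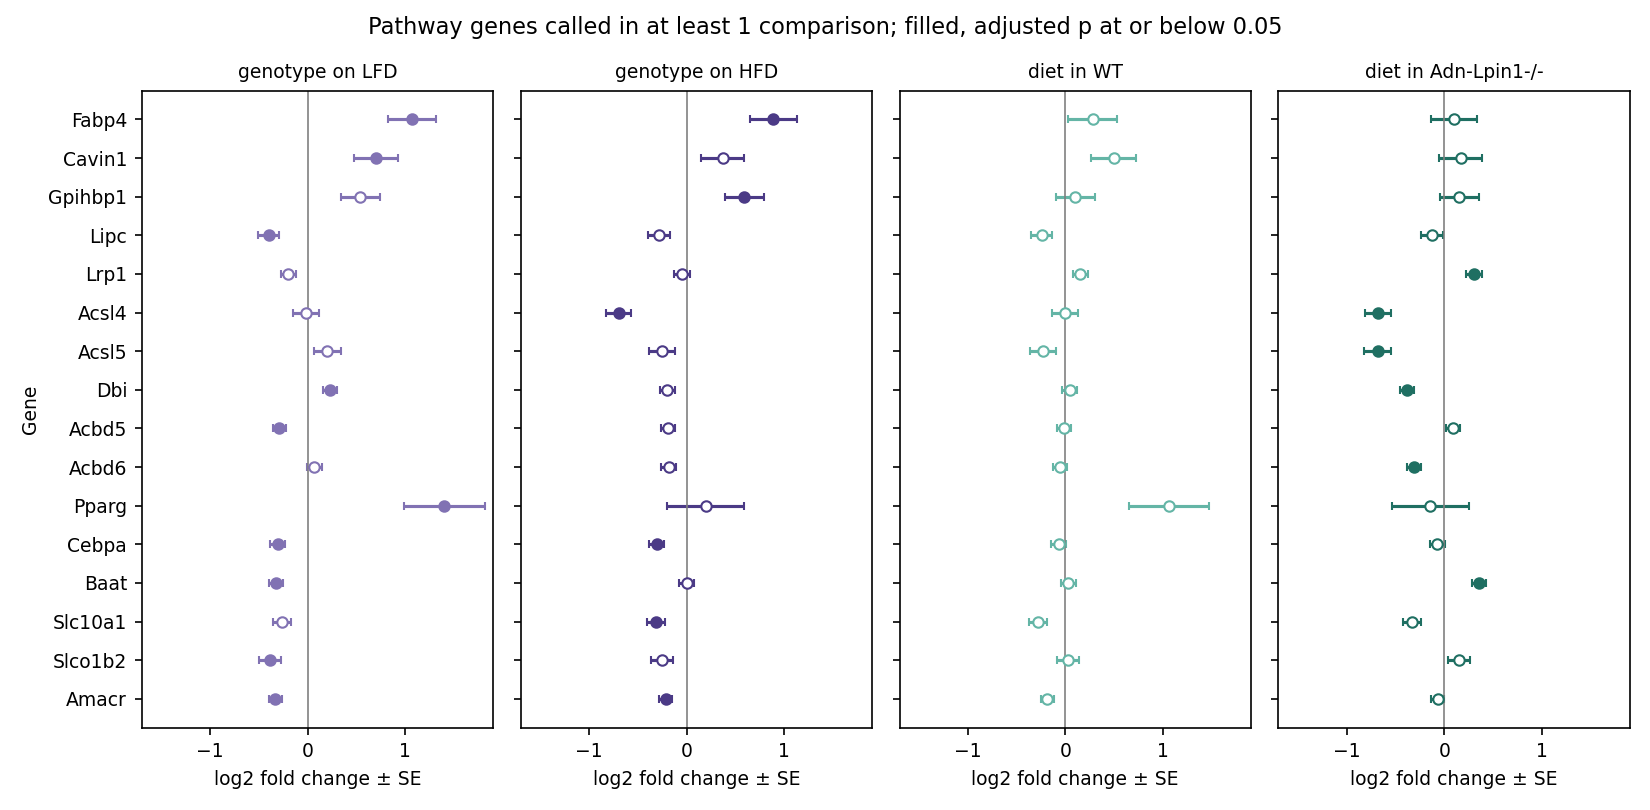
Log2 fold changes with SEs (horizontal axes) of the 16 pathway genes called in at least 1 of 4 comparisons, 1 panel per comparison, with filled points for an adjusted p of 0.05 or less. No point is filled for the diet in WT mice, and Acsl4, Acsl5, Dbi and Acbd6 lie below 0 for the diet in Adn-Lpin1-/- mice.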

How the data were processed

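Liver poly(A) RNA of 20 mice, and 4 pools, was sequenced. Per the labels and the study's methods, the submitters aligned reads with STAR 2.5.1a to GRCm38 and counted uniquely aligned, unambiguous reads per gene with featureCounts 1.4.6-p5. The deposited counts are raw. The deposited CPM and RPKM values were rescalings of these counts by the authors and were not tested. Ribosomal RNA genes were left out, and genes above 1 CPM in at least 4 of 20 libraries were kept (13052 of 41388).

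Counts were fitted over all 4 groups with edgeR 4.0.16 (TMM, quasi-likelihood, no covariates), with Benjamini-Hochberg adjustment over all tested genes and a threshold of 0.05. SEs were derived from the F statistic. Two-sided exact permutation tests used log2 CPM. The label of the mice as separate animals is the basis for n. The edgeR, voom and DESeq2 fits were tested on simulated counts with 200 changed genes, for the genotype on LFD only. The other steps were not tested on simulated data. Alternatives used DESeq2 1.42.0, limma 3.58.1 (voom), other scalings, no filter, a replicate block, a GC trend, thinning to 36119123 reads, near copies added to Fabp5, and each mouse left out. Near copies were found with BLAST+ 2.17.0+. Of the genes, 40254 (97.3%) matched a symbol.

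The members, lists and tests were chosen with earlier results of these data known. Named list genes are, per list, up to 4 called genes of largest log2 fold change, and for each member the 3 tested genes of highest Pearson r of log2 CPM over 20 mice. No batch is given in the labels.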

Additional observations from a re-analysis of the deposited data

Results flagged for a closer look

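In 4 of 32 groups (8 genes in 4 groups of 5 mice) 1 mouse stood apart from the others by Dixon's test at the 95% level, whose critical value for 5 samples is 0.71. Chance flags about 1 in 20 groups. Fabp1 stood at 6243 CPM in Adn-Lpin1-/- HFD mouse 3, and the other 4 mice of that group lay between 5142 and 5423 CPM. Fabp5 stood at 207 CPM in Adn-Lpin1-/- LFD mouse 3, beside 19.2 to 71.9 CPM, and without that mouse its fall with HFD in Adn-Lpin1-/- mice was -3.84 log2 units. Fabp5 also stood at 22.5 CPM in WT HFD mouse 5, beside 7.20 to 11.6 CPM, and the genotype difference on HFD was no longer called without it. Slc27a5 stood at 821 CPM in Adn-Lpin1-/- HFD mouse 4, beside 708 to 723 CPM. The causes were not tested.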

How the results depend on the processing

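Fabp5 kept its fall with HFD, and Slc27a5 its lower level in Adn-Lpin1-/- mice, under all 9 alternatives and all 20 fits that left out 1 mouse. Of 360 log2 fold changes of the 8 genes under alternatives, 332 kept their direction and side of the threshold. The setting with copies added to Fabp5 leaves the counts of the other members unchanged, so for them it is no test. Values of which no cause was tested follow.

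Members called on LFD between genotypes numbered 2, and 4 under DESeq2 and both voom fits (with and without pools). Between diets they numbered 1 in each genotype, and 2 in WT mice with voom and pools and 2 in Adn-Lpin1-/- mice under DESeq2 and with voom and pools. Pathway genes called numbered 23 on LFD with voom and pools (10 in edgeR), 11, 13 and 16 on HFD under DESeq2, voom, and voom with pools (6 in edgeR), and 3, 4 and 14 for the diet in WT mice (0 in edgeR) or 2 with the GC trend removed. They numbered 14 for the diet in Adn-Lpin1-/- mice with voom and pools (6 in edgeR) and 1 and 4 for the interaction under DESeq2 and with voom and pools. With voom and pools, in which mice are counted again in their pool, calls over all genes were 4177 (1877 in edgeR), 4763 (2434), 1927 (144), 2327 (321) and 190 (0) for the genotype on LFD and HFD, the diet in WT and Adn-Lpin1-/- mice and the interaction. DESeq2 called 400, 577 and 30 in the last 3, and voom alone 670 for the diet in WT mice. Between genotypes DESeq2 and voom alone called 2248 and 2217 of all genes on LFD and 2917 and 2447 on HFD.

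Mouse numbers did not pair the mice, since same-numbered mice had mean correlations of -0.07 to 0.00 of their deviations from group means. With the number as a replicate block 90 genes in all and 1 pathway gene were called for the diet in WT mice, the HFD genotype difference of Fabp5 was -1.61 (adjusted p = 0.0562), and that of Fabp1 was 0.0009. No other call of the 8 genes changed under the block.

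Signs turned only for uncalled differences near 0. Fabp1 between genotypes on HFD was 0.0374 with the GC trend removed, Fabp2 between diets in WT mice 0.0502 with voom, 0.0708 with voom and pools and 0.0115 with no filter, and Fabp7 there 0.0629 and 0.0675 with the voom fits. Interactions turned to -0.0403 for Slc27a1 with voom, to -0.00747, -0.0105 and -0.00794 for Slc27a2 with voom, no filter and the GC trend removed, and to -0.10 for Slc27a4 with voom and pools.

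Leaving out 1 mouse at a time, members called ranged from 1 to 3 on LFD and from 1 to 4 on HFD, pathway genes from 6 to 13, 4 to 10, 0 to 2 and 4 to 6, and all genes from 1208 (without WT LFD mouse 3) to 1954 for the genotype on LFD, 1477 (without Adn-Lpin1-/- HFD mouse 2) to 2750 on HFD, 55 (without WT HFD mouse 3) to 289 (without WT LFD mouse 5) for the diet in WT and 123 (without Adn-Lpin1-/- LFD mouse 3) to 383 in Adn-Lpin1-/- mice. Uncalled fold changes crossed 0, with ranges of -0.0767 to 0.0499 for Fabp1 between genotypes on HFD, -0.125 to 0.0103 for Fabp1, -0.0793 to 0.0725 for Fabp2 and -0.33 to 0.13 for Fabp7 between diets in WT mice. Between genotypes on LFD they were -0.94 (without Adn-Lpin1-/- LFD mouse 3) to 0.11 (without WT LFD mouse 2) for Fabp5 and -0.0773 to 0.385 for Fabp7. Slc27a2 ranged from -0.119 to 0.0114 between diets in Adn-Lpin1-/- mice and from -0.0494 to 0.0809 for the interaction, and Slc27a1 from -0.0778 to 0.196 for the interaction.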
